A study of Mus musculus with 2 samples.

Results

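Cryab, Hspb1, Hspb2, Hspb6, Hspb7 and Hspb8 encode small heat shock proteins, and Bag3 encodes a co-chaperone that works with them. These 7 genes, taken as listed by name without use of their measured values, were followed in cultured adipocyte precursors and in the few glial cells, myeloid cells and myoblasts grown with them, out of 32285 genes listed in the count tables. Stromal vascular cells from subcutaneous white (WAT) and interscapular brown (BAT) adipose tissue of C57/BL6J pups at P0 were digested with collagenase, plated and grown to confluency in 4 days, with no treatment or genetic change named for either group. The age and the days in culture are as the labels give them. The study's methods state the same days to confluency but an older age, and its results state a longer expansion in culture. Each depot was a single pool of male and female pups and 1 droplet library, so a difference between depots cannot be told apart from one between dishes, digestions or libraries, and no test between samples was possible. The brown library contained 7009 captured cells and the white library 5261, of which 6137 and 4407 passed the filters on genes, unique molecular identifiers (UMIs) and mitochondrial share.

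The authors' labels named the groups, with a cell type at hand for 1999 cells of each library and a cluster for 1999 precursors. In the white culture these were 4 clusters of early precursors (wAPC 1 to wAPC 4), committed adipocyte precursors (wCAPs), fibro-adipogenic-progenitor-like cells (wFAPLs) and a small cluster called differentiating wFAPLs. The brown culture held 5 early clusters (bAPC 1 to bAPC 5), bCAPs and bFAPLs. There were 256 labelled wFAPLs, 279 bFAPLs, 674 wCAPs, 296 bCAPs and 15 differentiating wFAPLs, with 20 white and 22 brown glial cells. Levels are given as CPM, the share of a gene in the summed UMIs of a group of cells scaled to a total of 1e+06, with an exact 95% Poisson interval in parentheses. These intervals, like every interval here, cover counting error only and not the spread between cultures. Precursor clusters had a median depth of 23338.5 to 31156 UMIs per cell.

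Small heat shock proteins bind unfolding proteins without using ATP and hold them in a form that the Hsp70 machinery can refold or pass on for degradation. The family shares a conserved alpha-crystallin domain, its members assemble into oligomers, and several of them guard actin, desmin and other cytoskeletal proteins in muscle. Cryab, or alpha B-crystallin, is also abundant in the lens and in glial cells. Bag3 links Hspb8 and other small heat shock proteins to Hsp70 and to selective autophagy of damaged cytoskeletal proteins. Many of these genes are targets of the heat shock factor Hsf1, which binds inverted repeats of the unit GAA in their promoters.

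The promoter letters are given as a description of the genes, and their part in the levels over the clusters was not tested. The first pair differ in their copies of that repeat. In mouse build GRCm38, Hspb1 lies on chromosome 5 from 135887919 to 135889563 on the plus strand, and Hspb7 on chromosome 4 from 141420779 to 141425311, also on the plus strand. The 250 bases before each RefSeq start (build GRCm38.p6) are at chr5:135887669-135887918 and chr4:141420529-141420778. Capitals mark GAANNTTC, a facing pair of the GAA unit, which reads the same on both strands. Hspb1 held this pattern at 117 and at 97 bases before its start, and the Hspb7 stretch held none.
Hspb1: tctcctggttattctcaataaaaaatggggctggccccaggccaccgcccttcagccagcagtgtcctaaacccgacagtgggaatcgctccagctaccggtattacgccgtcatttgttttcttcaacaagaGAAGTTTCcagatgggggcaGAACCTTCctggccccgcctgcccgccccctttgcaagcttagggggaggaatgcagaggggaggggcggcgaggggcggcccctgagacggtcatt
Hspb7: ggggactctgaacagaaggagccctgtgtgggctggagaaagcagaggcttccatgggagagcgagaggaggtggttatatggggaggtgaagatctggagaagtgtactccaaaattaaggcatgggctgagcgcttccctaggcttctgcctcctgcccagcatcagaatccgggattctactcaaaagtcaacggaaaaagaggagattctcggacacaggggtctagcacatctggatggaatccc

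Hspb6, Hspb8 and Bag3 each held 1 copy of the same pattern near a RefSeq start, and 30 bases around each copy are printed so that the spacing can be compared. The Hspb6 copy began 120 bases before the start at chromosome 7 position 30553301 (chr7:30553170-30553199, plus strand). The Hspb8 copy began at the 3rd transcribed base (chr5:116422844-116422873, minus strand), and the Bag3 copy at base 43 after the start at chromosome 7 position 128523583 (chr7:128523603-128523632, plus strand).
Hspb6: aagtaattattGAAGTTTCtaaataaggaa
Hspb8: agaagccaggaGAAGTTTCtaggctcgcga
Bag3: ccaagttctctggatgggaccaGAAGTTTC

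Windows of 250 bases before to 50 after a RefSeq start were matched for 5 of the 7 genes, all but Cryab and Hspb2. Of these 5, 4 held GAANNTTC. Of 32851 such windows over all genes, 7.86% held it. The outward-facing form TTCNNGAA was in 8.52% of all windows and in none of these 5 genes. TATAAA, counted on either strand, was in 13.6% of all windows and, among these genes, at 29 bases before the Hspb6 start. A match is a run of letters and not a measured binding site, and its absence from a window says nothing about the factor.

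Cryab and Hspb2 are neighbours on chromosome 9 that are read in opposite directions. In GRCm38, Cryab (ENSMUSG00000032060) spans 50751325 to 50756636 on the plus strand, and Hspb2 (ENSMUSG00000038086) spans 50751078 to 50752354 on the minus strand. The annotated genes share 1030 bases, and the longest Cryab transcript starts inside Hspb2. The start of transcript Cryab-201 lies 553 bases from the start of Hspb2. Their 3′ ends, which this assay counts, lie at opposite outer ends of the pair.

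Cryab was highest in wFAPLs and bFAPLs among the precursor clusters with 50 or more labelled cells. Its level was 333 CPM (320 to 347) in wFAPLs and 445 CPM (431 to 461) in bFAPLs. Among the other white clusters of that size, it ranged from 53.0 CPM (48.0 to 58.3) in wAPC 2, through 67.2 in wAPC 4, 69.6 in wAPC 3 and 85.5 in wCAPs, to 102 CPM (96.9 to 107) in wAPC 1. Neighbours in this order had separate counting intervals except wAPC 3, wAPC 4 and wAPC 2, where each overlapped the next.

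The brown order had a similar range below the bFAPLs. Cryab stood at 57.2 CPM in bAPC 1, 59.3 in bAPC 3, 84.2 in bAPC 5, 89.7 in bAPC 4, 95.3 in bCAPs and 113 CPM (107 to 119) in bAPC 2. The pairs bAPC 1 and bAPC 3, bAPC 5 and bAPC 4, and bAPC 4 and bCAPs overlapped in their intervals. The clusters were built from these same counts and the study names Cryab as a mark of FAPLs, so its high level there is a description of how the cells were sorted into groups.

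**Figure D1:**
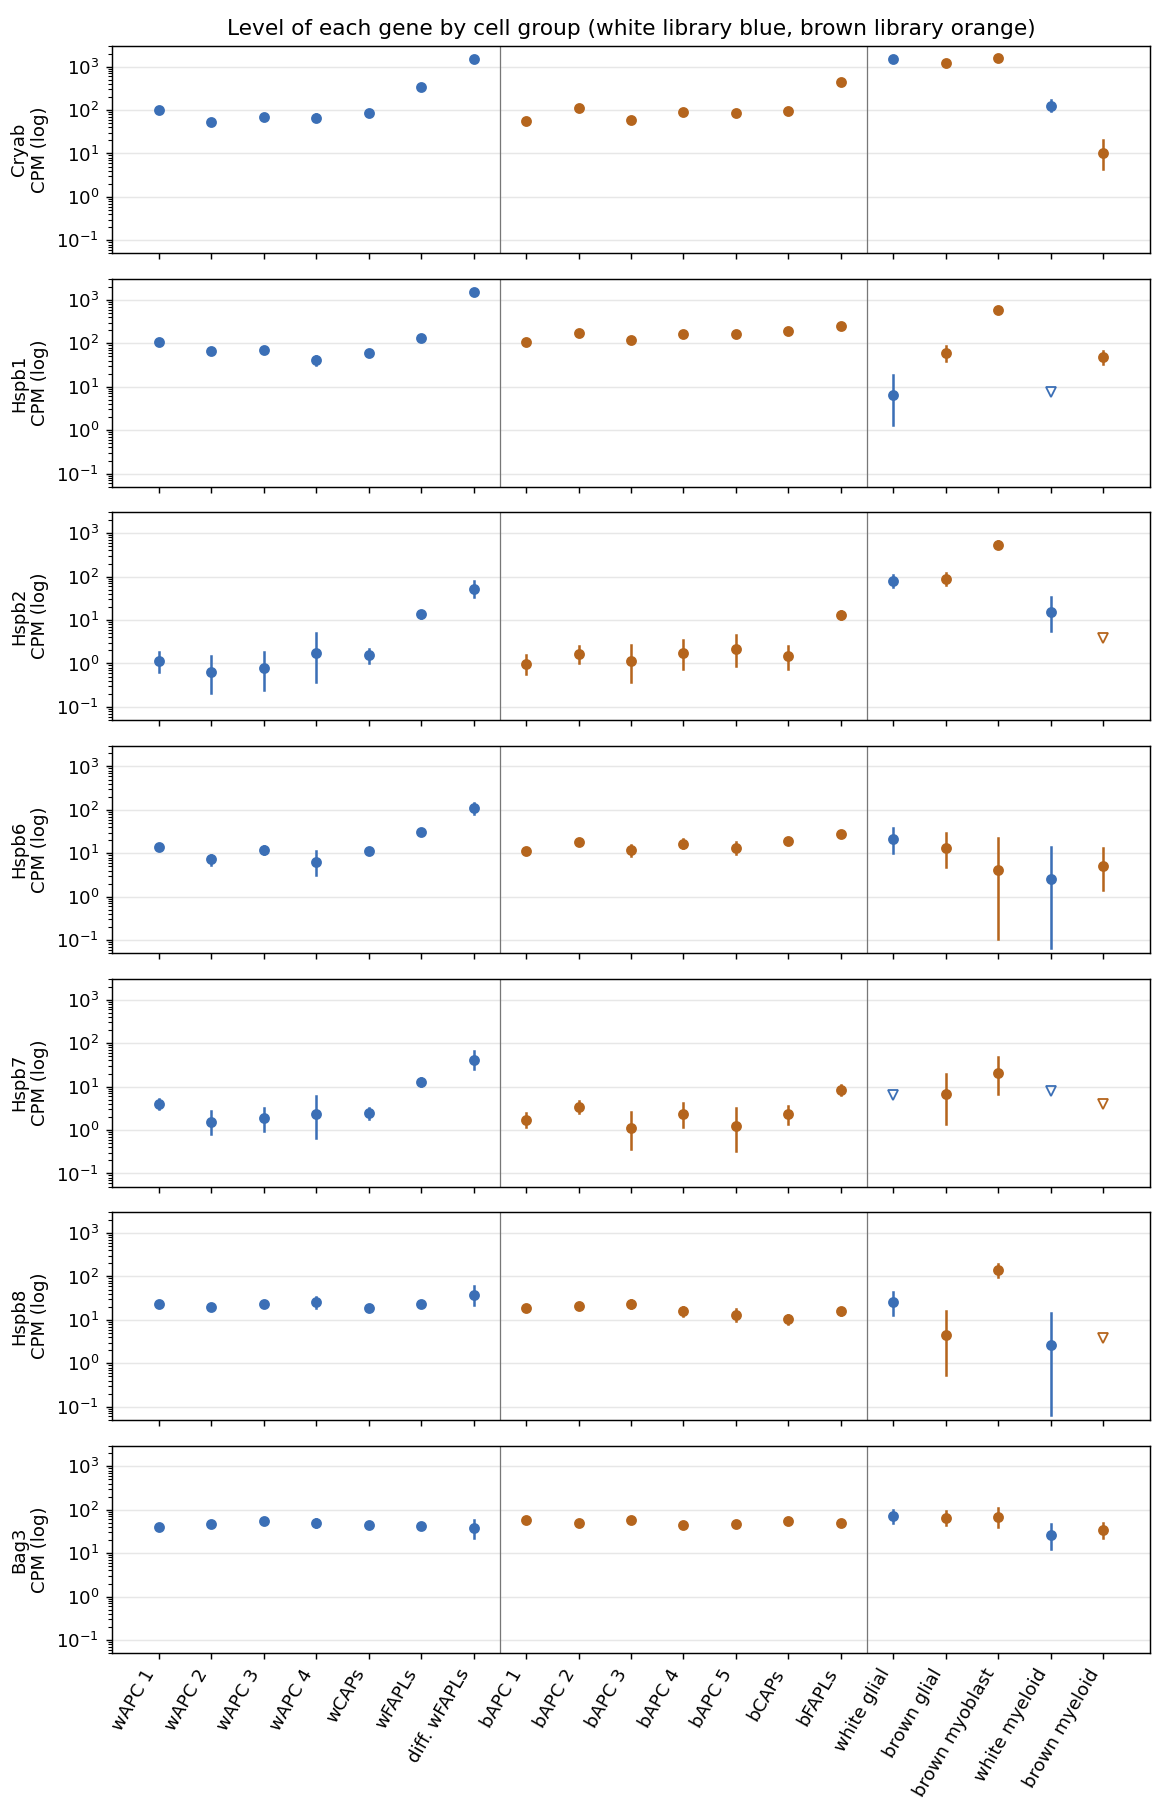
Level of each of the 7 genes (CPM of summed UMIs, log axis) in each group of labelled cells, with white groups in blue and brown groups in orange. Points are levels, bars are exact 95% Poisson intervals, and open triangles mark groups with no UMI at the level that 3 counts would give. Cryab, Hspb2, Hspb6 and Hspb7 were higher in wFAPLs than in the wAPC clusters and wCAPs, while Bag3 stayed between 37.7 and 57.7 CPM over the precursor clusters of both libraries.

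The difference was spread over most of the FAPLs and did not come from a few cells. When each cell was thinned to 10000 UMIs, 87.1% of wFAPLs and 91.4% of bFAPLs held a Cryab UMI, against 29.2% to 50.6% in the other clusters with 50 or more cells. Without thinning, the shares were 98.8% and 98.6%. Myeloid cells, which should lack the transcript, gave 7.14% in the white and 3.70% in the brown library after thinning, at a median depth of 25124.5 and 29269 UMIs per cell before it. The median FAPL held 3 thinned Cryab UMIs in either library, and the highest held 21 in wFAPLs and 23 in bFAPLs. Of the 206 labelled white precursors with 4 or more thinned Cryab UMIs, 106 were wFAPLs, and of 219 such brown precursors 138 were bFAPLs. Some cells of other clusters were also that high, among them 37 of 462 in wAPC 1 and 29 of 415 in bAPC 2.

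**Figure D2:**
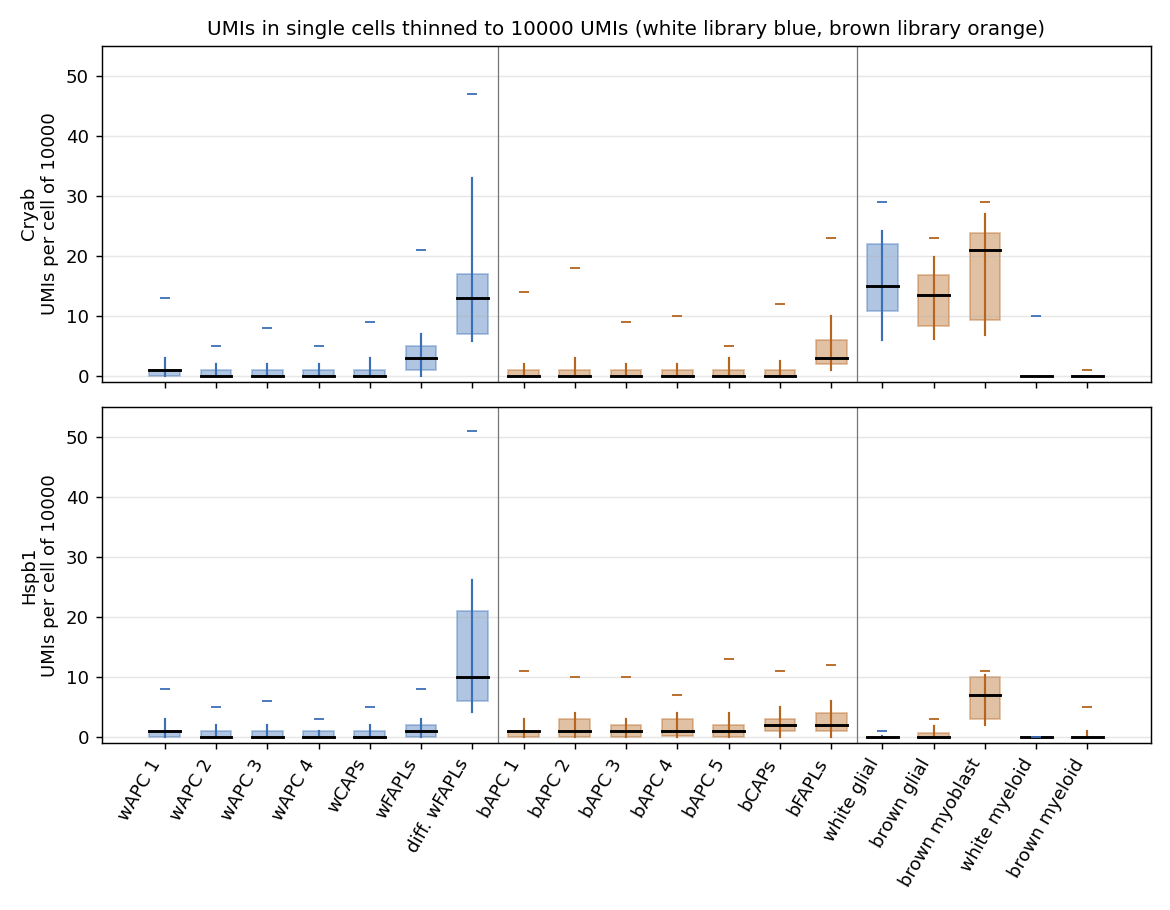
Cryab and Hspb1 UMIs in single labelled cells, each thinned to 10000 UMIs, by group. Boxes span the quartiles, black lines are medians, bars span the 10th to the 90th percentile and dashes mark the highest cell. The Cryab median was 3 in wFAPLs and bFAPLs and 0 or 1 in the other clusters with 50 or more cells.

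Against the other labelled white precursors, among them the 15 differentiating wFAPLs, Cryab was 3.46-fold higher in wFAPLs (log2 ratio 1.79, 1.72 to 1.86). Hspb2, whose product was first known as a binding partner of a muscle kinase, was 8.08-fold higher (log2 ratio 3.02, 2.58 to 3.45). Its levels were 13.5 CPM in wFAPLs, from 97 UMIs, and 0.644 to 1.77 CPM in the wAPC clusters and wCAPs. Thinning each cell to 10000 UMIs brought the Hspb2 log2 ratio to 2.16, from fewer UMIs. Hspb7, a small heat shock protein of heart and skeletal muscle, had a log2 ratio of 2.07 (1.68 to 2.46), from 12.8 CPM in wFAPLs and 1.55 to 3.97 in the same 5 clusters. Hspb6, or Hsp20, which acts on smooth muscle relaxation, had a log2 ratio of 1.35 (1.12 to 1.57), from 31.4 CPM against 6.48 to 13.8.

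Hspb1, or Hsp25, which caps actin filaments, stood out less. It was at 136 CPM (128 to 145) in wFAPLs and 107 CPM (101 to 112) in wAPC 1, and its log2 ratio was 0.61 (0.51 to 0.71). Hspb8 and Bag3 did not differ beyond counting error, with log2 ratios of 0.13 (-0.11 to 0.37) and -0.10 (-0.28 to 0.08). In all, 4 of the 7 genes were at least 2-fold higher in wFAPLs, where 1.94% of the 9138 genes with at least 10 CPM in either group were, and none was 2-fold lower, where 1.18% were. Of these 4, Hspb2 and Hspb7 reached 10 CPM in wFAPLs only. Their entry into the count and their call thus rest on the same level.

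In bFAPLs the same comparison put Cryab 5.44-fold higher (log2 ratio 2.44, 2.38 to 2.51) and Hspb2 9.47-fold higher (log2 ratio 3.24, 2.78 to 3.71). Hspb2 was at 13.0 CPM in bFAPLs and at 0.962 to 2.17 in the other brown clusters. The log2 ratio was 0.88 (0.65 to 1.11) for Hspb6 and 0.75 (0.67 to 0.82) for Hspb1. Hspb7 was at 8.36 CPM in bFAPLs and 1.14 to 3.47 in the other clusters, which left it under the minimum of 10 CPM and out of the count. Hspb8 (-0.16, -0.45 to 0.12) and Bag3 (-0.12, -0.28 to 0.04) again did not differ beyond counting error. Of the 6 genes above the minimum, 2 were at least 2-fold higher, beside 1.93% of 9049 genes. Hspb2 passed the minimum in bFAPLs only, so its entry and its call rest on the same level.

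**Figure D3:**
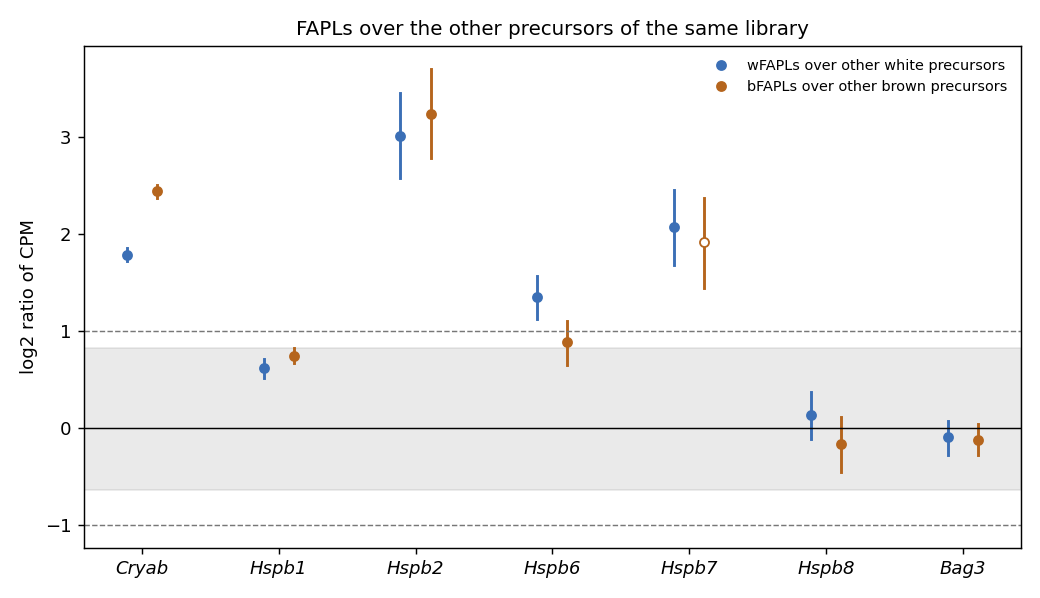
Log2 ratio of CPM between FAPLs and the other labelled precursors of the same library for each gene, white in blue and brown in orange. Bars are 95% counting intervals, the open point is a gene under 10 CPM in both groups, dashed lines mark 2-fold, and the grey band covers at least the middle 95% of all genes tested in each of the 2 comparisons (-0.64 to 0.83). Cryab, Hspb2 and Hspb7 lie above the band in both libraries, Hspb6 lies far above it in white and at 0.88 in brown, and Hspb8 and Bag3 lie near 0.

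Set directly against committed precursors, the Cryab difference was 3.90-fold between wFAPLs and wCAPs and 4.67-fold between bFAPLs and bCAPs. Hspb1 separated the white pair more than the brown pair, with a log2 ratio of 1.16 (1.03 to 1.28) in white and 0.35 (0.25 to 0.45) in brown. In white, 5 of 7 genes were at least 2-fold higher in wFAPLs, where 2.25% of all genes tested were. In brown, Cryab and Hspb2 were, 2 of 6, where 1.86% of all genes tested were. Hspb2 in both libraries, and Hspb7 in white, reached 10 CPM in FAPLs only, so their entry and call rest on the same level.

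Other chaperone genes had smaller ratios than Cryab and Hspb2. Of the cytosolic heat shock list, which holds Hsf1, Hsp90, Hsp70 and their co-chaperones, 0 of 19 genes tested in white and 0 of 18 in brown were 2-fold higher or lower in FAPLs. Of all genes tested, 1.94% were higher and 1.18% lower in white, and 1.93% were higher in brown. The exact share lower in brown is not given here. It was under 2.5%, since the lowest 2.5% of genes tested there began at a log2 ratio of -0.64. In so short a list a count of 0 is near these shares. The median log2 ratio of the list was -0.11 and -0.10, beside medians of 0.00 over all genes tested. The widest ratios were those of the inducible Hsp70 gene Hspa1b, 0.67 (0.31 to 1.02) in white and 0.65 (0.30 to 0.99) in brown. Hspa1b reached 10 CPM in FAPLs only, at 11.6 against 7.27 CPM in white and 11.9 against 7.60 in brown. Its entry among the genes tested and its ratio thus rest on the same level. Hspa4l, an Hsp110-type exchange factor, had 0.46 (0.14 to 0.77) in white. Dnajb4, an Hsp40 partner of Hsp70, had 0.44 and 0.60, and Hspd1, the mitochondrial Hsp60, was lower at -0.38 and -0.34.

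The partners of Bag3 also had small ratios. Of 16 genes of the BAG family and of selective autophagy, 0 passed 2-fold in either library, with medians of 0.09 and 0.05. Synpo2, a Z-disc partner of Bag3, was at 21.6 CPM in wFAPLs and 14.9 in the others (log2 ratio 0.54, 0.28 to 0.79), and Flnc, the muscle filamin that Bag3 clears, had -0.44 (-0.60 to -0.29) in bFAPLs. None of 14 genes of the unfolded protein response and none of 9 cytoskeletal genes tested passed 2-fold in either library. The immediate early genes, which tissue dissociation is known to induce, also gave 0 of 12 in white and 0 of 11 in brown, with a median of 0.17 in each. Of 5 other small heat shock family genes only Hspb11 reached 10 CPM, with log2 ratios of 0.03 (-0.10 to 0.16) and -0.11 (-0.24 to 0.02). These counts of 0 are likewise near the shares over all genes tested that are given above.

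Some smooth muscle genes were higher in the FAPL groups. Of 11 contractile genes, 2 (Actg2 and Myh11) were at least 2-fold higher in FAPLs of both libraries, beside the 1.94% and 1.93% of all genes tested, and the list's median log2 ratio was 0.58 in white and 0.39 in brown. In brown, Myh11 reached 10 CPM in bFAPLs only (48.4 against 9.43 CPM), so its entry and its call rest on the same level. Tagln, a calponin-related actin binder, was nearly level at 0.12 and 0.08, as was the tropomyosin gene Tpm1 at 0.15 and 0.04, a pair chosen after its values were seen. Actg2, the enteric smooth muscle actin, was at 370 CPM in wFAPLs and 113 CPM in the other white precursors. Of 8 mural cell markers, 7 reached 10 CPM in wFAPLs and in bFAPLs, with summed levels of 295 and 277 CPM, against 48.6 to 121 CPM in the wAPC clusters and wCAPs and 53.9 to 96.4 in the other brown clusters. Precursor markers stayed high, at 1404 CPM in wFAPLs and 1141 in bFAPLs. The part of these genes in the Cryab difference was not tested.

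The 15 cells called differentiating wFAPLs held far more of 5 of these genes. Cryab ranged from 11 to 187 UMIs per cell with a median of 44, and every cell held it. The level was 1537 CPM (1428 to 1652), which is 4.61-fold that of wFAPLs. Hspb1 ranged from 7 to 134 UMIs with a median of 35, also in all 15 cells. At 1529 CPM (1420 to 1644) it was 11.2-fold that of wFAPLs, the widest difference of any of the 7 genes between these groups.

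Hspb2 at 52.4 CPM, Hspb6 at 109 and Hspb7 at 41.9 were also more than 2-fold above wFAPLs, with log2 ratios of 1.95, 1.80 and 1.71. Hspb8 had a log2 ratio of 0.71 (-0.08 to 1.42) and Bag3 of -0.15 (-0.93 to 0.53), neither beyond counting error. So 5 of 7 genes were 2-fold higher, where 8.04% of 9481 genes tested were, and none of the 7 was 2-fold lower, where 14.3% were.

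Contractile and mural genes marked the same 15 cells. Of 11 contractile genes, 10 were at least 2-fold above wFAPLs, where 8.04% of all genes tested were. They were led by the smooth muscle myosin Myh11 at a log2 ratio of 4.62 (4.49 to 4.76). Of 8 mural markers, 7 reached 10 CPM, with a summed level of 3120 CPM. The precursor markers summed to 352 CPM, and 9 of 10 glial markers were at 0. Among genes tied to these chaperones, Des, the muscle intermediate filament that alpha B-crystallin protects, was at 149 CPM against 7.39, and Synpo2 at 382 against 21.6. Of 20 cytosolic heat shock genes 3 were 2-fold higher, Hspa1a (log2 ratio 2.47), Hspa1b (1.62) and Dnajb4 (1.17). Hspa1a reached 10 CPM in the differentiating wFAPLs only (37.7 against 6.83 CPM, from 18 UMIs). Its entry and its call thus rest on the same level. Over all genes tested, 8.04% were 2-fold higher and 14.3% lower. Ahsa1, an Hsp90 co-chaperone, was 2-fold lower (-1.13, -2.14 to -0.27), and Hsf2 had -1.07 from 3 UMIs with an interval that spanned 0 (-3.38 to 0.52).

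Between the depots, Hspb1 differed most. Over all filtered precursors it was at 160 CPM (158 to 162) in brown and 93.9 CPM (92.2 to 95.6) in white, a log2 ratio of 0.77 (0.74 to 0.80). Cryab was at 125 CPM in brown and 120 in white, with a log2 ratio of 0.06 (0.03 to 0.09). The remaining ratios were 0.31 for Hspb6, 0.26 for Bag3, -0.27 for Hspb8, -0.46 for Hspb7 and -0.16 (-0.36 to 0.04) for Hspb2, the last pair under 10 CPM in both libraries. Of the 5 genes above that minimum, 0 differed 2-fold, beside 1.84% of 9038 genes tested.

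The brown excess of Hspb1 was present in FAPLs and in committed precursors but not of the same size. Between bFAPLs and wFAPLs the log2 ratio was 0.85 (0.74 to 0.96), from 245 and 136 CPM. Between bCAPs and wCAPs it was 1.66 (1.55 to 1.77), from 193 CPM (183 to 202) and 61.1 CPM (57.6 to 64.6). In the first pair 0 of 7 genes differed 2-fold, where 1.69% of all genes tested did, and in the second Hspb1 was the 1 of 5, where 4.32% did.

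Pooled early clusters of the 2 depots lay on opposite sides of committed precursors for Hspb1. It was lower in wCAPs than in the wAPC clusters pooled, with a log2 ratio of -0.46 (-0.56 to -0.36), and higher in bCAPs than in the bAPC clusters, with 0.49 (0.41 to 0.57). The white clusters did not all lie on one side, since wCAPs at 61.1 CPM were above wAPC 4 at 41.2 CPM (32.2 to 52.1), overlapped wAPC 2 at 64.9 CPM (59.4 to 70.9) and were furthest below wAPC 1 at 107 CPM. Neither is a 2-fold difference, and 0 of 5 genes reached that in either library, beside 1.26% and 2.56% of all genes tested. These 2 contrasts were added after the levels had been seen. Hspb8 was lower in bCAPs, at 10.2 CPM (8.17 to 12.7), than in the other brown clusters, with an interval that overlapped those of bAPC 4 (15.9 CPM, 12.5 to 19.9) and bAPC 5 (13.0 CPM, 9.37 to 17.6). Its log2 ratio between bCAPs and the bAPC clusters was -0.89 (-1.23 to -0.56).

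**Figure D4:**
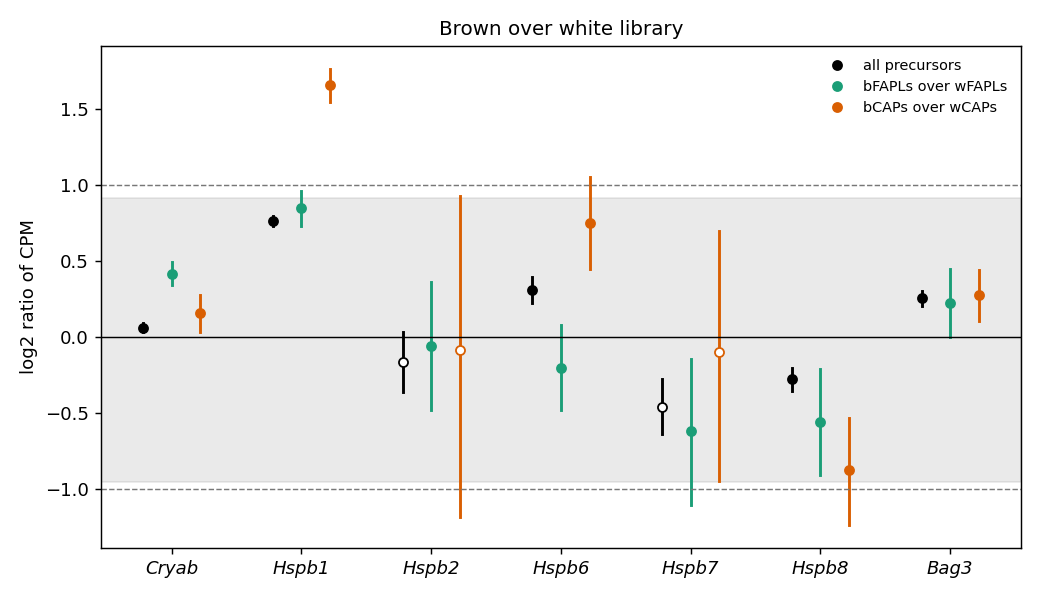
Log2 ratio of CPM between the brown and the white library for each gene, over all filtered precursors (black), bFAPLs over wFAPLs (green) and bCAPs over wCAPs (orange). Bars are 95% counting intervals, open points are genes under 10 CPM in both groups, dashed lines mark 2-fold, and the grey band covers at least the middle 95% of all genes tested in each of the 3 comparisons (-0.95 to 0.92). Hspb1 lies above 0 in all 3 comparisons and passes 2-fold between CAPs only.

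The FAPL pair and the other chaperone lists differed less between depots. In bFAPLs against wFAPLs, Cryab had a log2 ratio of 0.42 (0.34 to 0.49), Bag3 0.23 (0.00 to 0.45), Hspb2 -0.06 (-0.48 to 0.36) and Hspb6 -0.20 (-0.48 to 0.08). Hspb8 (-0.56, -0.91 to -0.21) and Hspb7 (-0.62, -1.10 to -0.14) were lower in the brown library. Over all precursors, 0 of 18 cytosolic heat shock genes differed 2-fold, near the share of 1.84% over all genes tested. Their median was -0.08, beside -0.04 over all genes tested. The immediate early list had a median of -0.20 with 0 of 12 genes past 2-fold, beside the same 1.84%. Fosb, its widest member, was at -0.80. The white and brown tissues were digested for different times, and the part of this in the ratios was not tested.

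The cells were also split by sex and by cycle phase. The Cryab log2 ratio between FAPLs and other precursors was 1.73 in female and 1.93 in male white cells, and 2.40 and 2.69 in brown. By phase it ran from 1.62 in G1 through 1.83 in S to 2.28 in G2M in white, and from 2.28 in G1 through 2.73 in S to 2.75 in G2M in brown. The brown excess of Hspb1 was 0.78 among female and 0.75 among male cells. The Hspb1 ratio between FAPLs and other precursors differed between the sexes in opposite directions in the libraries. It was 0.84 (0.75 to 0.92) in female brown cells and 0.25 (0.04 to 0.45) in the 47 male bFAPLs against 225 other male cells. In white it was 0.51 (0.39 to 0.63) in female and 0.86 (0.66 to 1.06) in male cells, the latter 57 wFAPLs against 340 others. The female and male intervals did not overlap in either library, and the cells of a library are not replicates.

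Glial cells were the highest in Cryab after the differentiating wFAPLs in white, and after the myoblasts in brown. Of the glial markers fixed for this label, 8 of 10 in white and 9 of 10 in brown reached 10 CPM, with summed levels of 3196 and 2583 CPM against 26.3 and 23.7 in the precursors. Sox10, the neural crest factor, was at 274 and 281 CPM. Cryab ranged from 10 to 66 UMIs per cell with a median of 37 in the 20 white glial cells, and from 8 to 48 with a median of 24 in the 22 brown ones. Every one of these 42 cells held the transcript.

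In CPM, glial Cryab stood at 1516 (1407 to 1631) for the white library, an interval that overlapped that of the differentiating wFAPLs, and at 1229 (1129 to 1335) for the brown one. Against the precursors with an author label, this was 12.1-fold and 9.48-fold higher, and it was 4.55-fold above wFAPLs and 2.76-fold above bFAPLs. Hspb2 was at 80.2 CPM in white and 88.4 in brown, 25.3-fold and 30.7-fold above precursors, with UMIs in 17 of 20 and 16 of 22 cells.

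Hspb1 went the other way. The white glial cells held 3 Hspb1 UMIs in 20 cells, or 6.33 CPM (1.31 to 18.5), against 93.7 CPM in labelled white precursors, a log2 ratio of -3.89 (-6.17 to -2.34). The brown glial cells held 27 UMIs in 9 of 22 cells, or 59.7 CPM, with a log2 ratio of -1.42 (-2.02 to -0.88), and 10 of these UMIs came from a single cell. Neither library had a glial Hspb7 level above 10 CPM, and the white glial cells had no Hspb7 UMI, where 3 counts would have given 6.33 CPM. Bag3 was at 71.8 CPM and 66.3 CPM, with log2 ratios of 0.69 (0.16 to 1.18) and 0.33 (-0.24 to 0.84). Glial cells differ from precursors in much of the transcriptome. So 2 of 6 genes higher, Cryab and Hspb2, compares with 15.2% of all genes tested in white and 15.6% in brown. The 1 lower gene in white (Hspb1) and the 2 in brown (Hspb1 and Hspb8) compare with 14.3% and 12.5%. Brown glial cells held 2 Hspb8 UMIs in 22 cells. Hspb2 reached 10 CPM in glial cells only, and white Hspb1 and brown Hspb8 in precursors only. Their entry and their call thus rest on the same level.

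Cytoskeletal genes in the glial cells fell into opposite groups. Nes and Synm, intermediate filament genes, had log2 ratios of 5.40 and 3.90 in white and 4.87 and 3.32 in brown, and Lmna had 1.54 and 1.19. Synm rests on 6 glial UMIs in white (interval 2.38 to 5.12) and 9 in brown (2.15 to 4.29). It reached 10 CPM in glial cells only, at 12.7 against 0.851 CPM in white and 19.9 against 1.99 in brown. Its entry and its call thus rest on the same level. Actn1, an actin crosslinker of the same list, was lower, at -4.44 (-5.65 to -3.46) in white and -2.45 (-2.99 to -1.96) in brown. Of the 10 genes of that list tested, 5 were 2-fold higher and 1 lower in white, and 3 and 1 in brown. Over all genes tested, 15.2% were higher and 14.3% lower in white, and 15.6% and 12.5% in brown. The smooth muscle contractile genes were lower by at least 2-fold for 11 of 11 in white and 10 of 11 in brown, with Acta2 at -6.34 and -3.28. In the 15 differentiating wFAPLs, where contractile genes were high, Cryab, Hspb2 and Hspb1 were all above their wFAPL levels. In the glial cells, where contractile genes were low, Cryab and Hspb2 were above their precursor levels and Hspb1 was below. A link between contractile genes and these levels was not tested.

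The small groups carried a large part of all Cryab reads. With labels carried over to every filtered cell, glial cells were 1.04% of white cells and held 9.61% of the Cryab UMIs, 15.2% of the Hspb2 UMIs and 0.0692% of the Hspb1 UMIs. Differentiating wFAPLs were 0.658% of white cells and held 7.54%, 11.1% and 11.3% of these. Brown glial cells were 1.11% of the cells and held 9.78% (9.42 to 10.2) of Cryab and 12.0% of Hspb2 UMIs. With the authors' labels only, brown glial cells were 1.07% of the cells and held 6.61% (6.09 to 7.16) of the Cryab UMIs. White ones were then 0.984% of the cells and held 8.98% (8.37 to 9.63). The glial levels above are from these labelled cells, and the brown Cryab level depends on which labels are used.

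The 8 labelled myoblasts of the brown library held the most Hspb2. They had 1 to 33 Hspb2 UMIs per cell with a median of 18, or 547 CPM (458 to 648), 190-fold above labelled brown precursors. Cryab was at 1563 CPM (1410 to 1728), Hspb1 at 592 and Hspb8 at 140, while Hspb6 came to 1 UMI. Of the myogenic markers, 5 of 8 reached 10 CPM, with Myod1 at 613 CPM. Here 5 of 7 genes were 2-fold higher, where 12.2% of all genes tested were. Hspb2 and Hspb7 reached 10 CPM in the myoblasts but not in the precursors, so their entry and call rest on the same level. After labels were carried over, myoblasts were 0.505% of brown cells and held 45.0% of all Hspb2 UMIs.

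Myeloid cells were low in most of these genes. The 27 brown myeloid cells held 8 Cryab UMIs (10.4 CPM, 4.50 to 20.5) and no UMI of Hspb2, Hspb7 or Hspb8, where 3 counts would have given 3.91 CPM. The 14 white ones held 49 Cryab UMIs, but 48 of them were in a single cell that also held 65 glial marker UMIs beside 389 of myeloid markers. Without that cell, 1 Cryab UMI remained in 13 cells, or 2.87 CPM.

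The ratio of Cryab to Hspb2 UMIs differed between some of the cell groups. In wFAPLs it was 24.6 (20.1 to 30.5) and in bFAPLs 34.3 (28.0 to 42.3), while in the other clusters of at least 50 cells it lay between 38.0 and 91.7 with wide intervals, from 3 to 30 Hspb2 UMIs each. It was 29.3 in differentiating wFAPLs, 18.9 (13.6 to 26.9) in white glial cells and 13.9 (10.1 to 19.7) in brown ones. In myoblasts it was 2.86 (2.34 to 3.51), below every other group with a ratio. The interval of the white glial cells lay below that of wCAPs but overlapped those of wFAPLs and differentiating wFAPLs (19.7 to 45.6). The interval of the brown glial cells lay below that of bFAPLs. Among the other clusters of at least 50 cells, the wFAPL interval overlapped that of wAPC 4 only. The bFAPL interval overlapped those of all but bAPC 2.

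**Figure D5:**
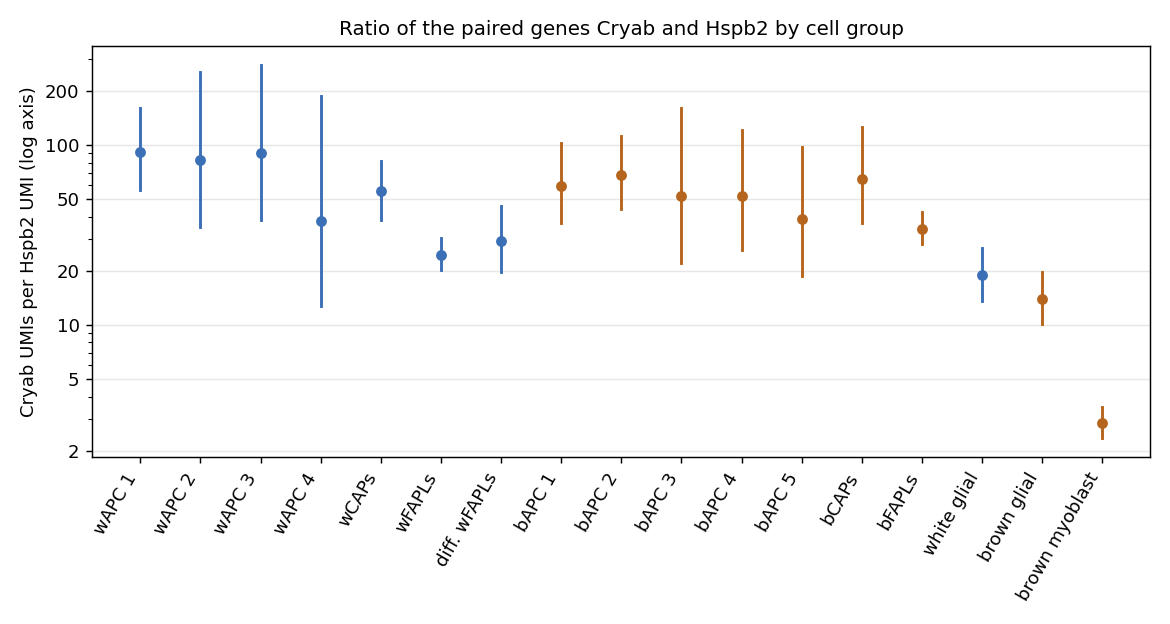
Cryab UMIs per Hspb2 UMI (log axis) in each group of labelled cells, white in blue and brown in orange, with 95% counting intervals. Brown myoblasts stand lowest at 2.86, the glial cells at 18.9 and 13.9, FAPLs at 24.6 and 34.3, and the other clusters with 50 or more cells at 38.0 to 91.7.

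Over the 13 precursor clusters with at least 50 labelled cells, the genes most like Cryab by Pearson's r of log2(CPM + 1) were Serpinb9 (0.95), Qpct (0.94), Ccn5 (0.93), Lxn (0.93) and Serpinb1a (0.92), among 4459 genes that reached 50 CPM in a cluster. Serpinb9 and Serpinb1a encode inhibitors of granule proteases. The clusters come from 2 libraries and were built from the same counts, so these values describe likeness only. Cryab was the gene most like Hspb2 (0.95) and the second most like Hspb7 (0.93).

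Among the 7 genes, Cryab had r of 0.86 with Hspb6, 0.57 with Hspb1, -0.10 with Hspb8 and -0.39 with Bag3. Hspb6 was most like Ppp1r14a, a smooth muscle phosphatase inhibitor (0.94), then Cpe (0.94) and Esyt1 (0.91). Hspb1 was most like Capns1 (0.94), Rab4b (0.94) and Ckb (0.93). Hspb8 had Lonp1, a mitochondrial protease (0.87), Wars (0.87) and Crls1 (0.86) nearest to it. For Bag3 the highest r was 0.80, with Trim28, and its neighbours in the order of clusters overlapped in every case in both libraries.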

How the data were processed

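Libraries were made with 10x Genomics 3′ v3.1 chemistry. The deposited values are raw UMI counts per gene and cell, made by the authors with Cell Ranger 7.0.1 on mm10, per the labels. Counts of 3′ ends do not scale with transcript length, so levels were compared within a gene. Cells with 3900 to 7700 genes, 6000 to 60000 UMIs and 1.7 to 5% mitochondrial UMIs were kept; no doublet caller was run. The libraries held 144451047 (white) and 205551320 (brown) UMIs and shared 9 barcodes. The authors' labels, from the study's source data, were at hand for the first 1999 cells (types) and 1999 precursors (clusters) listed per depot. The study itself clustered more cells than these. Labels were carried over to the rest by a vote of 15 neighbours in scanpy 1.11.5. That vote returned the authors' own type for 100% and 99.5% of labelled cells and the cluster for 90.2% and 86.7%. Cycle phase used Seurat 5.3.0 gene lists, and sex used Xist and Y-linked transcripts. With 1 library per depot there was no test: UMIs were summed per group, intervals were exact (Poisson, binomial; scipy 1.17.1) at 95%, and a gene counted as different at 2-fold with 10 CPM in either group. Ratios and intervals were tested on simulated data: for wFAPLs over other precursors, 200 of 200 genes changed 3-fold among 8838 were recovered. The simulated sums were Poisson counts without variation between cells. They check the computation and say nothing about the spread in the real cells. The 7 genes were measured in every comparison, though not every value is printed. Described with them are up to 4 genes of the widest ratio per pathway list, and 5 (Cryab) or 3 genes of the most similar pattern. Genes, lists and comparisons were chosen with earlier results of these data known. Alternatives changed the fold, filter, depth, labels, phase, sex, scaling and weighting.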

Additional observations from a re-analysis of the deposited data

How the results depend on the processing

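No paired analysis was possible because each depot is 1 library. Of 258 recomputed log2 ratios of single genes, 222 moved by less than their counting interval, 36 moved further, and none of those whose interval lay clear of 0 changed sign. At 1.5-fold instead of 2-fold, 4 genes counted as higher in bFAPLs instead of 2 (Hspb1 and Hspb6 joined), 1 differed between brown and white precursors instead of 0 (Hspb1), 2 between bFAPLs and wFAPLs instead of 0 (Hspb1 and Hspb7) and 3 between bCAPs and wCAPs instead of 1 (Hspb6 and Hspb8 joined). The share of all genes past 1.5-fold is not given here, so these counts show the effect of the setting only. The Cryab log2 ratio of 1.79 in wFAPLs became 1.94 with carried-over labels, 1.62 in G1 cells, 1.93 in male cells and 2.01 without the differentiating wFAPLs. That of 2.44 in bFAPLs became 2.28 in G1 cells and 2.69 in male cells. The Cryab ratio of 0.06 between depots became 0.23 over all captured cells, 0.13 in G1 cells, 0.11 when centred on the median gene, 0.095 as a mean over cells and 0.18 without the differentiating wFAPLs. Without the differentiating wFAPLs the Hspb1 ratio went from 0.61 to 0.86 in wFAPLs and from 0.77 to 0.93 between depots, and thinning each cell left 3 instead of 4 genes counted as higher in wFAPLs, since Hspb2 (2.16 instead of 3.02) was then under 10 CPM. Over all captured cells, which include the myoblasts, Hspb2 went from -0.16 to 1.28 between depots. The splits by sex and the settings without differentiating wFAPLs were chosen after seeing the data. With 1 library per depot, no spread between cultures is known; groups of 8 to 27 cells and genes under 10 CPM are limited by counts.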
